A study of Mus musculus with 6 samples.

Results

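The genes described here are 10 immediate early genes of mouse macrophages: the EGR factors Egr1, Egr2 and Egr3, the AP-1 factors Fos, Fosb, Jun, Junb and Atf3, the phosphatase gene Dusp1 and Ier3. They were chosen by name, and all 10 were found among the 17313 genes of the deposited table. RNA-seq was made from macrophages grown out of bone marrow of C57BL/6 mice that carried floxed Hdac2 alleles and had been given LLC1 cells, a Lewis lung carcinoma line, by vein. Marrow was taken on day 20. The KO group (3 libraries) also carried LysM-Cre, a Cre recombinase in the Lyz2 gene that is active in myeloid cells and leaves other marrow cells with intact alleles. The WT group (3 libraries) had the floxed alleles and the tumour cells but no Cre. The comparison asks how loss of HDAC2, a histone deacetylase, alters the RNA of such macrophages. Sex, age and whether each library came from its own mouse are not stated, so each p-value reflects only how far these libraries differ, which may be technical in part.

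Immediate early genes are switched on without new protein synthesis when growth factors, cytokines, microbial products or stress activate MAP kinases and, through them, factors such as SRF, its ternary complex partners and CREB. EGR proteins are zinc finger transcription factors. FOS and JUN proteins pair through leucine zippers to form AP-1. Many of the induced genes close a feedback loop: ATF3 and DUSP1 restrain inflammatory genes in macrophages, and DUSP1 does so by removing phosphate from p38 and JNK. Their RNAs are short-lived.

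The authors deposited whole-number values that behave as rounded, library-scaled reads of each gene, called scaled counts here, with totals from 5704313 to 5818315 in KO and 5776303 to 5837994 in WT. Hdac2 stood at 392, 387 and 375 in KO 1 to KO 3, against 534, 482 and 518 in WT 1 to WT 3. Which exon is deleted is not stated, and reads of remaining exons would still count for Hdac2. The libraries did not separate by genotype alone. Xist, the noncoding RNA of the inactive X, was at 3298 to 4997 in KO, against 5243 in WT 1, 0 in WT 2 and 74 in WT 3. The Y-linked Ddx3y, Kdm5d, Eif2s3y and Uty were at 0 to 10 in KO, at 23 to 44 in WT 1 and at 179 to 745 in WT 2 and WT 3. WT 2 and WT 3 therefore have no KO counterpart of their kind, and the log2 differences of the genes described are also given for KO against WT 1 alone. WT 1 is 1 library, and its Y-linked values lay above those of every KO library, so it is not an exact counterpart either. All 10 macrophage markers were present, with sums of 11495 to 12242 in KO and 12720 to 13685 in WT. Fibroblast and stroma markers (all 11 listed, led by Col1a1, Col1a2 and Fbn1) summed to 18261, 16703 and 14256 in KO, against 13918, 5818 and 6324 in WT, with Dcn at 25 or below. Fewer cells of a type and less RNA per cell cannot be told apart in such bulk RNA. Markers of other lineages had lower sums or no row. Rows were found for 1 of 8 neutrophil markers (S100a8, at 26 or below), 0 of 4 erythroid, 3 of 6 B cell and 3 of 9 T and NK markers. For dendritic cells there were 2 of 6, for mast cells and basophils 2 of 5, for carcinoma 2 of 5 and for endothelium all 5. None of these lists summed above 385 in any library. Some single markers were not low beside the genes described here. Ighm, of the B cell list, was at 212 to 348, above Ier3 in every library, and Cd4 was at 118 to 188. Some of these markers differed between the groups. Krt19, of the carcinoma list, was at 95, 73 and 75 in KO 1 to KO 3, against 22, 10 and 1 in WT 1 to WT 3. Mcpt8, of the basophil list, was at 94, 75 and 37 in KO, against 36, 0 and 4 in WT. S100a8 went the other way, at 15, 9 and 12 in KO against 20, 23 and 26 in WT. The part of such cells in the values below was not tested.

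The immediate early genes did not lie on one side. Egr2, Fos, Fosb, Jun, Junb, Atf3 and Dusp1 were lower in the KO mean, 7 of 10 where 50.9% of all genes were lower, and Egr1, Egr3 and Ier3 were higher, as were 49.1% of all genes. With limma on log2(value + 1) and Benjamini-Hochberg adjustment over the 13260 genes tested, none of the 10 passed an adjusted p of 0.05, and 0 of all genes (0%) passed in either direction. At an unadjusted p under 0.05, 5 of the 10 were lower (Egr2, Fos, Jun, Atf3 and Dusp1), against 9.68% of all genes, and 2 were higher (Egr1 and Ier3), against 14.7%. Single libraries moved these counts. The number lower was 3 without KO 1 or WT 2, 2 without KO 2 or WT 3, 7 without KO 3 and 6 without WT 1. The number higher was 1 without KO 1, KO 2 or KO 3, 3 without WT 1 and 0 without WT 2 or WT 3. The shares of all genes moved as well. The share lower ran from 3.54% without KO 1 to 14.1% without WT 1, and was 9.89% without KO 3. The share higher ran from 7.19% without KO 1 to 18.7% without WT 1. Jun, at an unadjusted limma p of 0.0477, was lost under upper-quartile rescaling (0.0763), cyclic loess (0.107) and a fit with no intensity trend (0.0759). It was also lost with a filter at a mean value of 100 (0.0501) and with a replicate block (0.0816). Egr1 was lost with the replicate block too (0.0730). For 3 genes (Egr2, Atf3 and Dusp1) the KO libraries lay wholly below the WT libraries, as they did for 13.4% of all genes. For 2 (Egr1 and Ier3) they lay wholly above, a pattern seen in 16.1% of all genes. The other 5 genes overlapped. The median difference over all genes tested was -0.005.

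**Figure D1:**
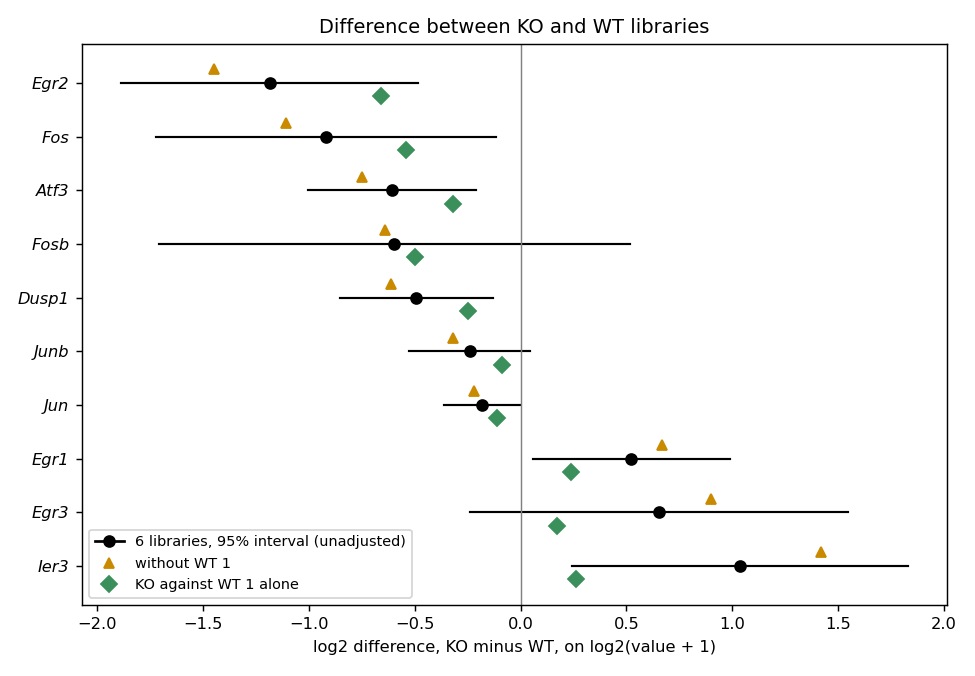
Log2 difference between KO and WT for each gene, from the limma test on 6 libraries with its unadjusted 95% interval (circles and lines), without WT 1 (triangles) and for KO against WT 1 alone (diamonds). The 7 genes from Egr2 to Jun lie left of 0 and Egr1, Egr3 and Ier3 right of it in each of the 3 fits, and the diamonds lie nearest 0 in each row.

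Among the EGR genes, Egr2 differed most and in the opposite direction to its relatives. Egr2 (ENSMUSG00000037868, chromosome 10, 67535475 to 67542188, plus strand, mm10), a factor often used as a marker of alternatively activated macrophages, was at 252, 247 and 406 scaled counts in KO 1, KO 2 and KO 3, against 463, 839 and 768 in WT 1, WT 2 and WT 3. Both groups were spread out, with KO 3 the highest of KO and WT 1 the lowest of WT, and they did not overlap. The means were 301.7 ± 90.4 in KO and 690.0 ± 199.8 in WT (SD, n = 3 each), a KO to WT ratio of 0.437. The log2 difference was -1.18 ± 0.289 (SE, limma, adjusted p = 0.158), and -0.66 against WT 1 alone (limma, adjusted p = 0.790). Without WT 1 it was -1.45 and passed the test (limma, adjusted p = 0.0103).

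Egr1 (ENSMUSG00000038418, chromosome 18, 34859823 to 34864984, plus strand), the family member induced most widely by growth factors, was at 365, 348 and 471 scaled counts in KO 1 to KO 3, against 332, 284 and 213 in WT 1 to WT 3. The groups did not overlap, but KO 2 and WT 1 lay close together. The log2 difference was 0.52 ± 0.192 (SE, limma, adjusted p = 0.175), and 0.24 against WT 1 alone (limma, adjusted p = 0.858). Egr3 (ENSMUSG00000033730, chromosome 14, 70077203 to 70082614, plus strand), known for roles in lymphocytes and muscle spindles, was at 82, 114 and 131 in KO 1 to KO 3, against 95, 83 and 39 in WT 1 to WT 3. These groups overlapped, and WT 3 was the lowest library. The log2 difference of Egr3 was 0.66 ± 0.367 (SE, limma, adjusted p = 0.319), 0.17 against WT 1 alone and 0.27 without WT 3.

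The balance between Egr2 and Egr1 within a library, which library scaling cannot alter, was 0.69, 0.71 and 0.862 in KO 1 to KO 3, against 1.39, 2.95 and 3.61 in WT 1 to WT 3 (ratio of scaled counts). The groups did not overlap, and WT 1 lay nearest to KO. Corrected for exonic length, the pair was close in KO, with Egr2 at 74.2, 72.7 and 119 and Egr1 at 81.4, 77.6 and 105 scaled counts per kb in KO 1 to KO 3. In WT 1 to WT 3, Egr2 was at 136, 247 and 226 per kb and Egr1 at 74.0, 63.3 and 47.5, so Egr2 was above Egr1 in KO 3 and in every WT library. The exact two-sided permutation test on the log2 ratio gave p = 0.1, the smallest that 3 against 3 libraries allow. Both the separation and this p were fixed, because Egr2 lay wholly below and Egr1 wholly above WT in KO. The test therefore adds nothing to the results of the single genes. This ratio was chosen after the values were seen.

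**Figure D2:**
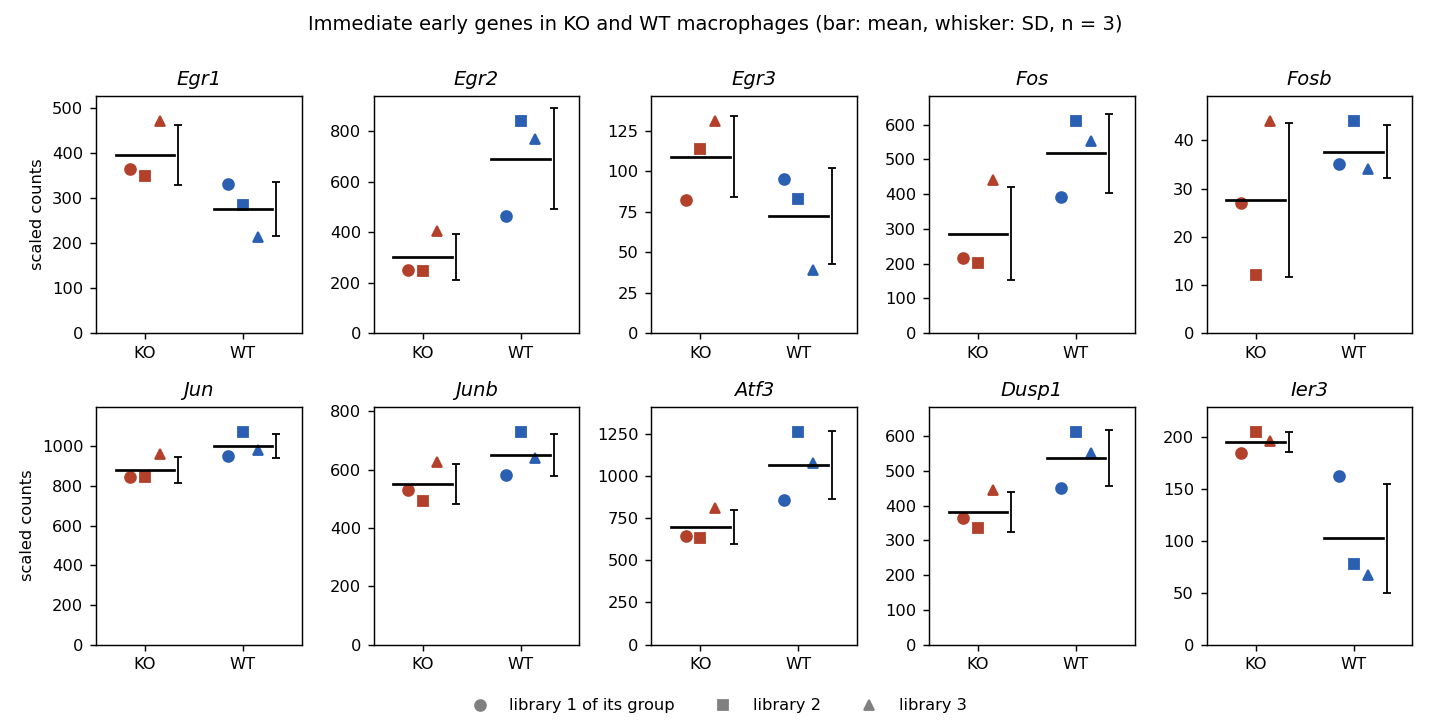
Scaled counts of each gene in the 3 KO (red) and 3 WT (blue) libraries, each axis starting at 0, with the mean as a bar and the SD as a whisker. Egr2, Atf3 and Dusp1 have all KO points below all WT points, Egr1 and Ier3 have them above, and the other panels overlap.

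All 5 AP-1 genes were lower in the KO mean, but only Atf3 separated the groups. Atf3 (ENSMUSG00000026628, chromosome 1, 191170296 to 191218039, minus strand), a stress-induced factor that represses cytokine genes, was at 642, 633 and 813 scaled counts in KO 1 to KO 3, against 861, 1261 and 1079 in WT 1 to WT 3. KO 3, the highest of KO, came close to WT 1, the lowest of WT. The log2 difference was -0.61 ± 0.164 (SE, limma, adjusted p = 0.158). It was -0.32 against WT 1 alone (limma, adjusted p = 0.796) and -0.75 without WT 1, where it passed (limma, adjusted p = 0.0156).

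Fos (ENSMUSG00000021250, chromosome 12, 85473890 to 85477273, plus strand), the founding AP-1 partner of JUN, was at 216, 203 and 441 scaled counts in KO 1 to KO 3, against 391, 610 and 552 in WT 1 to WT 3. KO 3 stood above WT 1, while KO 1 and KO 2 were lower than every WT library. The log2 difference was -0.92 ± 0.331 (SE, limma, adjusted p = 0.172), with -0.54 against WT 1 alone, -1.28 without KO 3 and -1.11 without WT 1 (limma, adjusted p = 0.0792). Fosb (ENSMUSG00000003545, chromosome 7, 19302696 to 19310051, minus strand), its close relative, was low throughout, at 27, 12 and 44 in KO 1 to KO 3, against 35, 44 and 34 in WT 1 to WT 3. KO 2 was the lowest library, and KO 3 equalled WT 2, the highest of WT. The log2 difference of Fosb was -0.60 ± 0.458 (SE, limma, adjusted p = 0.464), -0.50 against WT 1 alone and -0.11 without KO 2.

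The JUN genes were abundant and had the smallest log2 differences of the 10. Jun (ENSMUSG00000052684, chromosome 4, 95049034 to 95052222, minus strand), which encodes the main partner of FOS, was at 845, 844 and 958 scaled counts in KO 1 to KO 3, against 950, 1070 and 981 in WT 1 to WT 3. Junb (ENSMUSG00000052837, chromosome 8, 84976910 to 84978718, minus strand), whose protein can act in place of or against JUN, was at 531, 493 and 627 in KO 1 to KO 3, against 583, 728 and 639 in WT 1 to WT 3. For both genes KO 3 lay above WT 1, and the groups overlapped there. The log2 differences were -0.18 ± 0.0737 for Jun (SE, limma, adjusted p = 0.202) and -0.24 ± 0.118 for Junb (SE, limma, adjusted p = 0.264), and -0.11 and -0.09 against WT 1 alone. The unadjusted 95% intervals ran from -0.36 to -0.0026 for Jun and from -0.53 to 0.05 for Junb. In the GENCODE M21 annotation, Jun shares 232 exonic bases with Junos (12 to 24 scaled counts) on the opposite strand. Junb shares 173 there with Prdx2 (463 to 572 scaled counts), also on the opposite strand. Shared reads could be told apart only if strand was used in counting, which is not stated. The Junb model of that annotation differs from the deposited one, so its overlap may not hold for the deposited values.

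Dusp1 and Ier3, both regulators of MAP kinase signalling and cell survival, lay on opposite sides. Dusp1 (ENSMUSG00000024190, chromosome 17, 26505590 to 26562128, minus strand) was at 366, 336 and 446 scaled counts in KO 1 to KO 3, against 452, 612 and 553 in WT 1 to WT 3. The groups did not overlap, though KO 3 and WT 1 nearly met. The log2 difference was -0.49 ± 0.148 (SE, limma, adjusted p = 0.158), -0.25 against WT 1 alone (limma, adjusted p = 0.844) and -0.61 without WT 1, where it passed (limma, adjusted p = 0.0279).

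Ier3 (ENSMUSG00000003541, chromosome 17, 35821684 to 35822923, plus strand), an early response gene whose protein modulates ERK signalling and apoptosis, was at 185, 205 and 197 scaled counts in KO 1 to KO 3, against 163, 78 and 67 in WT 1 to WT 3. The KO libraries were tight, WT 1 was close below them, and WT 2 and WT 3 were far lower. The means were 195.7 ± 10.1 in KO and 102.7 ± 52.5 in WT (SD, n = 3 each), a ratio of 1.91. The log2 difference was 1.04 ± 0.327 (SE, limma, adjusted p = 0.158), but 0.26 against WT 1 alone (limma, adjusted p = 0.790) and 1.42 without WT 1, where it passed (limma, adjusted p = 0.00119). In the summed stroma markers, too, WT 1 lay near KO and above WT 2 and WT 3, and their part in the result was not tested.

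Without WT 1, 4 of the 10 genes passed in all, 3 lower (Egr2, Atf3 and Dusp1) and 1 higher (Ier3), where 5.07% of all genes passed as lower and 12.8% as higher. In that fit the WT libraries are WT 2 and WT 3, so genotype and the Xist split cannot be told apart. Against WT 1 alone, in a fit that assumes WT 1 to vary like the KO libraries, all 10 kept their direction. The exact two-sided permutation test gave p = 0.1 for Egr1, Egr2, Atf3, Dusp1 and Ier3, p = 0.2 for Fos, Jun and Junb, p = 0.3 for Egr3 and p = 0.5 for Fosb, with 0.1 the smallest this design allows.

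Promoters are shown for Egr2, Atf3, Dusp1 and Ier3, whose groups did not overlap, and for Fos, to set side by side the starts of genes that were lower (Egr2, Atf3, Dusp1, Fos) and higher (Ier3) in KO. Windows from 250 bases before to 50 bases after the start were taken from RefSeq on GRCm38.p6 and were used for 8 of the 10 genes. Egr1 and Egr3 were not searched, so Ier3 was the only gene higher in KO among those searched. Egr2 had 5 windows, of which the most upstream was used, and the other genes had 1 each. For Atf3 and Dusp1 that window lay well inside the gene span given above, not at its upstream end. Capitals mark the GC box GGGCGG, a sequence bound by SP1, the factor named with HDAC2 in the title of the study, and the cAMP response element half-site TGACG, each on either strand.
Egr2: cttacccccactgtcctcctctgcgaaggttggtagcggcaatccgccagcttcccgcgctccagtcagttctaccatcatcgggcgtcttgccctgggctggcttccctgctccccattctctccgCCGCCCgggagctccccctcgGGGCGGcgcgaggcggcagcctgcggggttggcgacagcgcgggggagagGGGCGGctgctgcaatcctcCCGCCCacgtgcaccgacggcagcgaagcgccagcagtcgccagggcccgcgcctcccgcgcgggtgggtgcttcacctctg
Atf3: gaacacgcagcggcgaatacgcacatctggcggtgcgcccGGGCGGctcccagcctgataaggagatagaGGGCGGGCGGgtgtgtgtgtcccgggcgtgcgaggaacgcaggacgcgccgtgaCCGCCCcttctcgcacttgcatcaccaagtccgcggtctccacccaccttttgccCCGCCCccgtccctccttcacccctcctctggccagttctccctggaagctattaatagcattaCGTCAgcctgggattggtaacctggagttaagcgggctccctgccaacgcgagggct
Dusp1: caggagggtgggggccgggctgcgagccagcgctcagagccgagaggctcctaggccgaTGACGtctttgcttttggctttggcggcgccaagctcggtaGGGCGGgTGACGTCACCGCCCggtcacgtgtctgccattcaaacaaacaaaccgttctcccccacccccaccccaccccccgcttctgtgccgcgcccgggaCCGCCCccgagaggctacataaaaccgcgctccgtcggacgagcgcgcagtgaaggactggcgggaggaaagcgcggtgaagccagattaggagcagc
Fos: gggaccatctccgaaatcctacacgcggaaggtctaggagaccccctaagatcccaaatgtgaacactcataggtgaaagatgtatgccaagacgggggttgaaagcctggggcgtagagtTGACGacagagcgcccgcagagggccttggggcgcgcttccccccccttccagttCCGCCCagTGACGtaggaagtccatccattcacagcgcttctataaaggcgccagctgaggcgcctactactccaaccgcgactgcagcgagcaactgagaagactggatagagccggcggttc
Ier3: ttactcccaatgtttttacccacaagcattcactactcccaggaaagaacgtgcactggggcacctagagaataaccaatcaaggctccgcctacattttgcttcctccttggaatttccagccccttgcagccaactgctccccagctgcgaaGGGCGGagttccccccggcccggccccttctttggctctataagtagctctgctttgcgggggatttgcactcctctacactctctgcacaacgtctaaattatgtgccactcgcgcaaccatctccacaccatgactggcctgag
The windows lie at chr10:67535249-67535548, plus strand for Egr2, chr1:191183284-191183583, minus strand for Atf3, chr17:26508423-26508722, minus strand for Dusp1, chr12:85473640-85473939, plus strand for Fos and chr17:35821463-35821762, plus strand for Ier3.

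A GC box was present in 7 of the 8 windows, against 35.7% of all 32851 windows of this length. Atf3 held 5, Egr2 4, Dusp1 and Fosb 3 each, and Fos, Jun and Ier3 1 each, with overlapping matches counted separately, while the letters were not in the Junb window. The half-site TGACG was in 5 of the 8 windows (Fos, Fosb, Junb, Atf3 and Dusp1), against 20.8% of all windows. The full element TGACGTCA, which contains the half-site on both strands, was found once, in Dusp1, and in 1.79% of all windows. An EGR site, GCGNGGGCG, was in the Fosb window, where it overlapped a GC box, and in 5.55% of all windows. The AP-1 site TGANTCA (7.81% of all windows) and the CArG box bound by SRF (1.63%) were not matched in these 8 windows. Bases further upstream, and the Egr1 and Egr3 promoters, were not searched, so these genes may carry such sites elsewhere. Ier3, the only searched gene higher in KO, carried 1 GC box, and genes lower in KO ranged from none in Junb to 5 in Atf3.

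Level per length placed Atf3, Junb and Jun at the top. In scaled counts per kb of exonic length, Atf3 averaged 323 in KO and 495 in WT, Junb 304 in KO and 359 in WT, and Jun 277 in KO and 314 in WT. In KO the ranges of these 3 genes overlapped, from 294 to 377 for Atf3, 273 to 347 for Junb and 265 to 300 for Jun. In WT the range of Atf3, 400 to 585, still met that of Junb, 322 to 402. At the bottom, Egr3 averaged 24.7 in KO and 16.4 in WT, and Fosb 4.43 in KO and 6.03 in WT.

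The middle of the order differed between the groups. Ier3 came next after Jun in KO, at 173 per kb in KO and 90.8 in WT, and below it in KO only Fos had a library as high, KO 3 at 188. Fos averaged 122 per kb in KO and 220 in WT, and Dusp1 116 in KO and 163 in WT. Egr2 and Egr1 were at 88.8 and 88.0 per kb in KO, level with each other, against 203 and 61.6 in WT. Over all genes the highest mean was 0.85 scaled counts per exonic base, so 0 genes exceeded 1. Atf3 at 0.409, Junb at 0.332 and Jun at 0.295 were above 99.06%, 97.98% and 97.03% of genes on this measure, and whether a ceiling narrowed their differences was not tested.

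**Figure D3:**
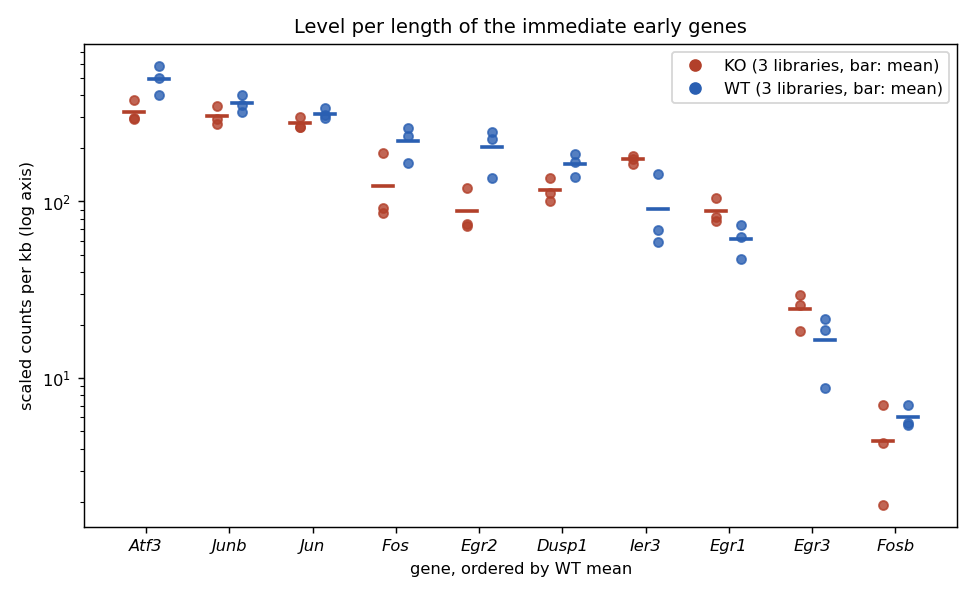
Scaled counts per kb of exonic length (log axis) for each gene, ordered by the WT mean, with the 3 KO libraries in red left of the 3 WT libraries in blue and bars at the means. Atf3, Junb and Jun are highest in both groups, Fosb is lowest, and Ier3 is at 173 in KO against 90.8 in WT.

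KO 3 was the highest KO library for 9 of the 10 genes, all but Ier3, against 40.7% of all genes tested. WT 2 was the highest WT library for the 7 genes lower in KO, against 42.9% of all genes, and WT 1 was the highest for Egr1, Egr3 and Ier3, against 32.7%. WT 1 was instead the lowest WT library for Egr2, Fos, Jun, Junb, Atf3 and Dusp1, and WT 3 was the lowest for Fosb, Egr1, Egr3 and Ier3. Relative to each gene's own mean on the log2 scale, Fos was at -0.77 and -0.86 in KO 1 and KO 2 and at 0.25 in KO 3, a wider gap within KO than between KO 3 and WT 1 at 0.08. WT 1 lay nearer the KO mean than WT 2 and WT 3 did for 9 of the 10 genes, all but Fosb, as it did for 59.5% of all genes. Of the other immediate early genes described next, 20 of 24 tested were highest of KO in KO 3, and so were 8 of the 10 macrophage markers, 12 of 16 MAP kinase feedback genes, 7 of 12 other leucine zipper genes, 10 of 23 upstream genes, 4 of 8 heat shock genes and 1 of 10 stroma markers.

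**Figure D4:**
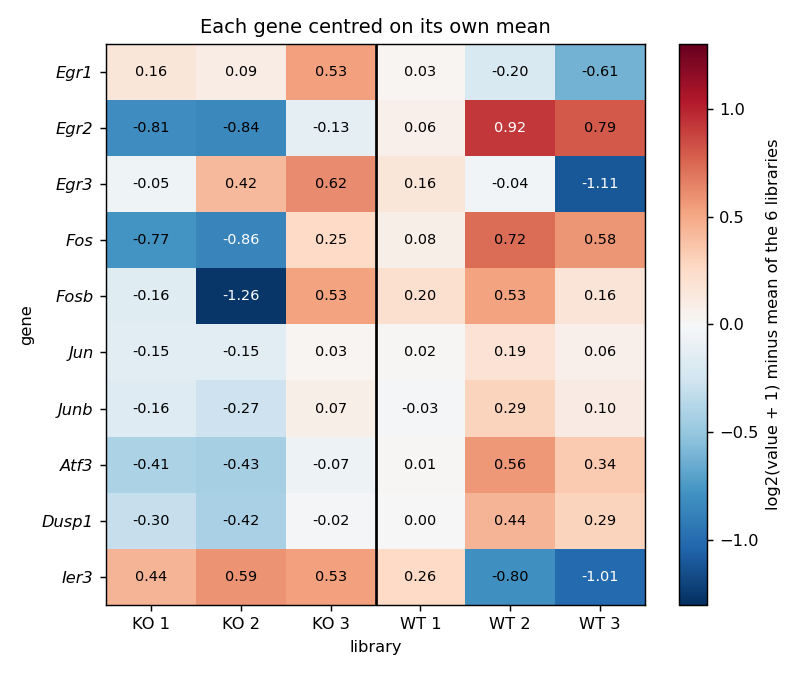
Each gene's log2(value + 1) minus its mean over the 6 libraries, with KO libraries left of the line and WT libraries right of it. KO 1 and KO 2 are low and WT 2 and WT 3 high for Egr2, Fos, Atf3 and Dusp1, KO 3 and WT 1 lie near 0 for Atf3 and Dusp1, and Ier3 is low in WT 2 and WT 3.

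No gene on the lists of partners and relatives of these factors passed after adjustment over all genes. NAB proteins bind EGR factors and repress their activity. Nab2 was at 564.7 ± 71.0 scaled counts in KO and 660.3 ± 69.0 in WT, and Nab1 at 635.7 ± 28.9 in KO and 656.0 ± 58.0 in WT (SD, n = 3), both with overlap and with log2 differences of -0.06 and -0.15 against WT 1 alone. Egr4 did not exceed 4 in any library and was not tested. Among 12 other leucine zipper genes, 3 were higher and 1 lower at an unadjusted p under 0.05, where 14.7% of all genes were higher and 9.68% lower. Their median log2 difference was 0.0.

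The 3 leucine zipper genes with the smallest p were all higher in KO without overlap, which choice by p favours. Of the 12, the KO libraries lay wholly above WT for 3, against 16.1% of all genes, and wholly below for 0, against 13.4%. Fosl1, which encodes the FOS relative FRA-1, was at 116, 103 and 123 scaled counts in KO 1 to KO 3, against 95, 39 and 33 in WT 1 to WT 3. Jdp2, a JUN partner that represses AP-1 targets, was at 237.3 ± 14.3 in KO and 156.3 ± 40.5 in WT (SD, n = 3). Batf, an AP-1 factor of lymphocytes and dendritic cells, was at 31, 32 and 22 in KO 1 to KO 3, against 18, 9 and 17 in WT 1 to WT 3. The log2 differences were 1.18 for Fosl1, 0.63 for Jdp2 and 0.94 for Batf (limma, adjusted p = 0.163, 0.158 and 0.168), and 0.26, 0.24 and 0.61 against WT 1 alone. Fosl1 thus lay on the other side from Fos, with WT 1 near KO as for Ier3.

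Of 24 tested genes among 25 other immediate early genes, 12 had a higher and 12 a lower KO mean, and the median log2 difference was -0.01. At an unadjusted p under 0.05, 1 was higher, against 14.7% of all genes, and 4 were lower, against 9.68%. The KO libraries lay wholly above WT for 0 of them, against 16.1% of all genes, and wholly below for 3, against 13.4%. Klf6, a zinc finger factor of activated macrophages, was at 1254 ± 48.8 scaled counts in KO and 1488 ± 106 in WT, and Zfp36l2, which promotes decay of AU-rich mRNAs, at 956.3 ± 26.1 in KO and 1110 ± 74.1 in WT (SD, n = 3), both without overlap. Plk2, a stress-induced kinase, was at 805, 791 and 1092 in KO 1 to KO 3, against 1032, 1517 and 1270 in WT 1 to WT 3, an order close to that of Fos. The log2 differences were -0.24 for Klf6, -0.21 for Zfp36l2 and -0.50 for Plk2 (limma, adjusted p = 0.158, 0.158 and 0.171), and -0.12, -0.11 and -0.22 against WT 1 alone.

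Feedback inhibitors of MAP kinase signalling included genes on both sides. Of 16 tested, 5 were higher and 1 lower at an unadjusted p under 0.05, as were 14.7% and 9.68% of all genes, and the median log2 difference was 0. The KO libraries lay wholly above WT for 6, against 16.1% of all genes, and wholly below for 1, against 13.4%. Spry1 and Spry4, which encode Sprouty inhibitors of receptor tyrosine kinase signalling, differed most by p on the higher side. Spry1 was at 157, 105 and 84 scaled counts in KO 1 to KO 3, against 56, 16 and 15 in WT 1 to WT 3, and Spry4 at 89, 84 and 93 in KO 1 to KO 3, against 61, 9 and 12 in WT 1 to WT 3. Their log2 differences were 2.17 and 2.16 (limma, adjusted p = 0.158 for both), and 0.98 and 0.53 against WT 1 alone. WT 1 again lay between KO and the other WT libraries, as the stroma markers did, and the part of such cells in these values was not tested. Spred1, an inhibitor of RAS to RAF signalling, was lower at 1381 ± 66.4 in KO and 1597 ± 28.9 in WT (SD, n = 3; log2 difference -0.21, limma, adjusted p = 0.158, and -0.20 against WT 1 alone), and here WT 1 lay with WT 2 and WT 3.

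This list held 10 other DUSP genes. Dusp10, Dusp14 and Dusp16 were higher in every KO library than in any WT library, and the other 7 overlapped. Dusp4, a nuclear phosphatase of ERK and JNK, was at 336, 347 and 546 scaled counts in KO 1 to KO 3, against 494, 746 and 547 in WT 1 to WT 3. Dusp6, the cytoplasmic ERK phosphatase, was at 850, 880 and 952 in KO 1 to KO 3, against 958, 919 and 839 in WT 1 to WT 3, and overlapped. The inducible nuclear phosphatases Dusp2 and Dusp5 overlapped too. Dusp2 was at 13, 16 and 19 in KO 1 to KO 3, against 18, 24 and 18 in WT 1 to WT 3, and Dusp5 at 120, 136 and 205 in KO 1 to KO 3, against 145, 183 and 122 in WT 1 to WT 3. Dusp10, a phosphatase of JNK and p38, was at 126, 114 and 95 in KO 1 to KO 3, against 92, 57 and 72 in WT 1 to WT 3, without overlap. These 5 were named after their values were seen, to stand beside Dusp1.

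Upstream of the immediate early genes, 23 MAP kinase, SRF and CREB genes were tested, with a median log2 difference of -0.02. At an unadjusted p under 0.05, 1 was higher and 3 were lower, shares to set beside 14.7% and 9.68% of all genes. The KO libraries lay wholly above WT for 2 of the 23, against 16.1% of all genes, and wholly below for 4, against 13.4%. The genes with the 3 smallest p are named here, a choice that favours separated groups. Mapk3, which encodes ERK1, was at 826.0 ± 17.3 scaled counts in KO and 926.0 ± 44.4 in WT, and Mapk14, which encodes p38 alpha, at 1095 ± 9.61 in KO and 1199 ± 62.6 in WT (SD, n = 3). Elk3, a ternary complex partner of SRF, was at 940.7 ± 19.7 in KO and 786.0 ± 107 in WT. All 3 were without overlap, with log2 differences of -0.16, -0.13 and 0.27 (limma, adjusted p = 0.158, 0.190 and 0.173), and -0.12, -0.07 and 0.05 against WT 1 alone.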

How the data were processed

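Poly(A) RNA-seq libraries of 3 KO and 3 WT macrophage cultures were used. The deposited values are a score, read counts per gene scaled per library and rounded by the authors, as the values show: totals are nearly equal, and in WT 2 the values 6, 17, 29, 40 and 52 never occur, as when whole reads are multiplied and rounded. Per the submitters' processing notes, the tools were STAR 2.7.10a, featureCounts 2.0.3, Picard 2.27.4, Trimmomatic 0.39 and DESeq2 1.36.0 on mm10, with roles and order not given. Because exact reads and depth are unknown, count tests and counting intervals were not used.

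Of 17313 genes, the 13260 that reached 10 in 3 or more libraries were kept. limma 3.58.1 (R 4.3.3) was run with its trend option, two-sided, on log2(value + 1), which understates changes of low genes. The group was the only term, and p-values were adjusted by Benjamini-Hochberg over all genes tested. Differences are KO minus WT. All 10 immediate early genes passed the filter. The fit was also run on simulated data with independent noise for each gene. Such data lack the differences that these libraries share across genes, so that run does not test their effect. Exonic lengths are unions of exons in GENCODE M21, in which 17297 identifiers were found, 99.1% with the same coordinates. For Junb, whose model differs there, the 1809 bases of the deposited span were used. Promoter windows were searched with Python 3.11.15.

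The rule for naming took the 10 genes, Hdac2, the 3 genes with the smallest p of each pathway list, and the 5 genes most alike in pattern. The genes and lists were chosen with earlier results of these data known. Alternatives were other pseudocounts, filters and scalings, no trend, a replicate block, leaving out each library and KO against WT 1 alone.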

Additional observations from a re-analysis of the deposited data

How the results depend on the processing

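All 10 genes kept their direction in the 15 alternatives run (14 for Egr3 and Fosb, which a mean value of at least 100 removed), and of 148 such values 144 stayed on the same side of the threshold. The exceptions were Egr2, Atf3, Dusp1 and Ier3, which passed without WT 1. Leaving out 1 library at a time, the number of these genes called ranged from 0 to 4 and of all genes from 0 to 2363, both highest without WT 1 and 0 otherwise. The Hdac2 difference then ranged from -0.45 to -0.38 and passed only without WT 1 (limma, adjusted p = 0.0142). Single libraries moved some values by more than 1.5 times: Fosb was -1.01 without KO 3 and -0.11 without KO 2, and Egr3 0.27 without WT 3 (main values -0.60 and 0.66). Under cyclic loess Jun was -0.12 and Fosb -0.86. The split of all genes at an unadjusted p under 0.05 was 1947 higher and 1283 lower, but 1072 and 1128 with the mean filter of 100. The replicate block gave 0 calls. Deviations of same-numbered libraries from their group means correlated at 0.53, -0.36 and 0.02. With 3 libraries in each group, these values cannot settle whether the numbers pair the libraries. Depth is unknown, which limits most the low genes Fosb and Egr3.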

Other observations

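Heat shock genes summed to 3002, 3018 and 2979 scaled counts in KO 1 to KO 3, against 3072, 3263 and 3156 in WT 1 to WT 3, without overlap. Of 8 tested, 2 had a higher and 6 a lower KO mean, and the median log2 difference was -0.08. The KO libraries lay wholly above WT for 1 of the 8, against 16.1% of all genes, and wholly below for 1, against 13.4%. Hspa1b was at 85, 73 and 63 scaled counts in KO 1 to KO 3, against 57, 39 and 36 in WT 1 to WT 3, without overlap, while its near-identical neighbour Hspa1a was at 32, 15 and 28 in KO 1 to KO 3, against 26, 30 and 25 in WT 1 to WT 3. Reads of the pair can be shared, so neither value stands on its own. Hsph1 was at 632.0 ± 30.4 in KO and 720.7 ± 79.6 in WT, and Hspa8 at 570.7 ± 11.4 in KO and 610.0 ± 29.5 in WT (SD, n = 3). Against WT 1 alone the log2 differences were 0.35 for Hspa1b, -0.02 for Hsph1 and -0.07 for Hspa8.

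Among 10587 candidate genes, those whose values over the 6 libraries most resembled the mean profile of the 5 AP-1 genes were Itpr2, Slc25a25, Tsg101, Eng and Nr2c1, with Pearson r from 0.993 to 0.997. Eng, which encodes the TGF-beta coreceptor endoglin, was at 766, 685 and 890 scaled counts in KO 1 to KO 3, against 852, 1009 and 904 in WT 1 to WT 3. Itpr2, a calcium release channel, was at 876, 830 and 974 in KO 1 to KO 3, against 950, 1025 and 1000 in WT 1 to WT 3. The mean profile of the 3 EGR genes, which joins genes that lay on opposite sides, was most like Tmem39b, Armc5, Rcc2, Itga5 and Smyd5 (r from 0.985 to 0.991). With 6 libraries and so many candidates, values this high describe the ranking only.

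Within single libraries, the ratio of Fos to Egr1 was 0.592, 0.583 and 0.936 in KO 1 to KO 3, against 1.18, 2.15 and 2.59 in WT 1 to WT 3. The ratio of Ier3 to Dusp1 was 0.505, 0.61 and 0.442 in KO 1 to KO 3, against 0.361, 0.127 and 0.121 in WT 1 to WT 3. Neither pair overlapped between the groups. For Ier3 to Dusp1 this was fixed, because Ier3 lay wholly above and Dusp1 wholly below WT in KO. The ratio of Atf3 to Jun separated too, at 0.76, 0.75 and 0.849 in KO 1 to KO 3, against 0.906, 1.18 and 1.1 in WT 1 to WT 3. Fos to Jun overlapped, at 0.256, 0.241 and 0.46 in KO 1 to KO 3, against 0.412, 0.57 and 0.563 in WT 1 to WT 3. The exact permutation p was 0.2 for Fos to Jun and 0.1, the smallest possible, for the others. These ratios were chosen after the values were seen.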
